A study of Mus musculus with 2 samples.

Results

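The genes described are 10 that work in the elongation step of protein synthesis or in the control of cap-dependent initiation, of 55536 genes listed. They were picked by symbol, as genes of known role, and no threshold on a measured value entered the choice, although earlier results of these data were known when it was made. Eef1a1 and Eef1a2 encode alternative forms of eEF1A, and Eef1b2, Eef1d and Eef1g encode subunits of its exchange factor eEF1B. Eef2 encodes the translocation factor eEF2, and Eef2k its kinase. Eif4e encodes the cap-binding factor, and Eif4ebp1 and Eif4ebp2 encode its binding proteins. The tissue was gastrocnemius, a calf muscle, and the mice were 2-month-old males of the hybrid B6CASTF1/J, a first-generation cross of B6 and CAST. There was 1 group of 2 total RNA libraries, each started from 300 ng with ERCC spike-in RNA and numbered replicate 1 and replicate 2. The labels give 1 donor entry for both tissue samples and do not say that they came from separate animals. The spread between libraries may thus be technical in part, and no comparison between conditions is implied.

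eEF1A carries aminoacyl-tRNA to the ribosome as a complex with GTP, and eEF1B recharges it by exchanging GDP for GTP. eEF2 then moves the ribosome along the mRNA by a codon, and eEF2 kinase stops it by phosphorylation. eIF4E binds the cap of mRNA and recruits the scaffold eIF4G, and unphosphorylated 4E-binding proteins compete with eIF4G for the same surface until mTOR complex signalling phosphorylates them. Skeletal muscle fibres, heart muscle and neurons are known to switch from Eef1a1 to Eef1a2 after birth, while most other cells use Eef1a1.

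The sequences below, from the GENCODE M21 transcripts on mm10, show how far the eEF1A genes differ and hence how well reads can tell them apart. Over 1386 coding bases compared position by position without gaps 278 differed, an identity of 79.94%, and the longest identical run was 23 bases. No window of 100 bases, the read length that the effective lengths in the first tables imply, was identical between the pair. Printed 5′ to 3′ is the stretch of 60 coding bases within an exon of each gene that differed most, coding bases 643 to 702, with the 22 differing bases in capitals. It lies on the minus strand at chr9:78479694-78479753 for Eef1a1 and at chr2:181150989-181151048 for Eef1a2.
Eef1a1-201: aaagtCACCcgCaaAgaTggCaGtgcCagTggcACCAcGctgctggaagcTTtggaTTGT
Eef1a2-201: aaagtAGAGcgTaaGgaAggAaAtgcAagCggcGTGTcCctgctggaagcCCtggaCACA

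The 4E-binding proteins share a short motif by which they hold eIF4E, and its codons are printed to show the feature common to both genes. The search asked for a tyrosine codon, then 4 codons of any kind, a leucine codon and a hydrophobic codon, in frame. It found 1 match in each coding sequence, starting at codon 53 of Eif4ebp1 and codon 54 of Eif4ebp2. Capitals mark the tyrosine and leucine codons in 27 bases on the plus strand at chr8:27273334-27273360 and on the minus strand at chr10:61435066-61435092.
Eif4ebp1-201: atcTATgaccggaaatttCTGatggag
Eif4ebp2-201: attTATgaccgaaagtttCTGttggac

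Elongation factor mRNAs are textbook members of the class that starts with a run of pyrimidines, through which mTOR signalling controls their translation. The transcript searched for each gene was its most abundant in replicate 1 of the first tables. On its own strand, the first 100 bases were searched for a C followed by at least 5 bases that are each C or T. For Eef1d another transcript, Eef1d-217, led in replicate 2 and in the second tables of both libraries, and it was not searched. For Eif4e and Eef2k the transcripts searched were Eif4e-205 and Eef2k-203. Eif4e-201 and Eef2k-201 took more reads in both libraries, start upstream of these and were not searched. Such a run was present in 7 of the 10 genes and was not found in the windows of Eif4e, Eif4ebp1 or Eif4ebp2. For Eif4ebp1 the transcript searched was Eif4ebp1-202, which has no annotated protein. The start of the coding Eif4ebp1-201 was not searched, so nothing follows for that transcript. The same search matched 51.2% of 9819 protein-coding genes at a TPM of 1 or more in both libraries, so a run somewhere in this window is common. The run started at the first annotated base in Eef1b2-209 alone among the 10, against 1.58% of those 9819 genes. Printed are 24 bases around the run in the transcripts of the 6 elongation factor genes, with the run in capitals. Places are counted from the annotated start.
Eef1a1-201 (chr9:78481653-78481676, minus strand, from base 49): acgttCTTTTTCgcaacgggtttg
Eef1a2-201 (chr2:181156980-181157003, minus strand, from base 12): tggttCTCTCCCTCgctccggtgc
Eef1b2-209 (chr1:63177130-63177153, plus strand, from base 1): CTTTTTTTCCCTCagcgctggccg
Eef1d-213 (chr15:75909294-75909317, minus strand, from base 3): gggcgCCCTCCCTCTCCTTTgcag
Eef1g-201 (chr19:8967079-8967102, plus strand, from base 39): gtatgCCTTTTatgccgtcctcgc
Eef2-201 (chr10:81176641-81176664, plus strand, from base 11): gcggtCTCTTCCgccgcagccgcc

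Expected counts summed over genes were 42724520 in replicate 1 and 42280091 in replicate 2. The 10 genes took 0.342% and 0.333% of them, and each gene had between 817 and 54110 reads in a library. Levels are in TPM, a measure per transcript length and per library, so genes can be compared. Pairs of values give replicate 1 before replicate 2. The tables in the layout of RSEM are called the first tables and those in the layout of kallisto the second tables. Fibre markers fixed as a check of the tissue (Acta1, Ckm, Tnnt3, Mylpf and Myh4) summed to 76323 TPM in replicate 1 and 61623 in replicate 2. Of 5 neuron markers none exceeded 5 reads in a library, and Syt1 and Tubb3 had 0 in both, which allows up to 3 reads.

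Eef1a2 was the most abundant of the 10 genes, and Eef2 came next. Eef1a2 (chr2:181147653-181157014) stood at 786 TPM (replicate 1) and 793 TPM (replicate 2) and averaged 789 ± 4.74 (SD, n = 2). It ranked 50 and 56 among protein-coding genes by TPM. Eef1a1 (chr9:78478449-78489151) stood at 153 and 143 TPM, a mean of 148 ± 7.09, and ranked 327 and 362. The ranges of the pair were far apart in both libraries. Eef1a2 held 83.7% of the summed eEF1A TPM in replicate 1 and 84.7% in replicate 2, averaging 84.2 ± 0.717%. In the second tables its share was 82.3% and 83.2%.

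Whole muscle holds many cell types besides fibres, and in bulk RNA fewer cells of a type and less RNA per cell cannot be told apart. Markers of the non-fibre cells were present. Over 5 markers each, fibro-adipogenic cells summed to 199 TPM in replicate 1 and 192 in replicate 2. Mural cells summed to 139 and 128 TPM, endothelial cells to 60.1 and 56.4, satellite cells to 34.3 and 30.4, Schwann cells to 33.4 and 28.1 and macrophages to 20.6 and 17.4. The satellite sum came mostly from Itga7, at 22.9 and 20.3 TPM, while Pax7, Myf5 and Vcam1 were each under 1 TPM. The mural sum came mostly from Rgs5, at 56.6 and 59.4 TPM, and Abcc9, at 53.1 and 47.5. Whether fibres contributed to these sums was not tested. The 4 erythroid markers summed to 229 and 208 TPM. The part of these cells in the Eef1a1 level was not tested.

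Eef2, the translocase gene (chr10:81176631-81182498), stood at 523 and 483 TPM and averaged 503 ± 28.5. Its ranks were 73 and 93. Together Eef1a1, Eef1a2 and Eef2 held 72.7% and 71.9% of the TPM of the 10 genes. The eEF1A genes summed to 1.79 times Eef2 in replicate 1 and 1.94 times in replicate 2, and to 2.08 and 2.24 times in the second tables.

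The eEF1B subunit genes formed a middle tier. Eef1g (chr19:8967041-8978479), the gamma subunit, which anchors the complex, was at 166 TPM in both libraries, 166 ± 0.106 on average. Eef1b2 (chr1:63176825-63180486), the beta subunit with exchange activity, was at 122 and 134 TPM, a mean of 128 ± 8.67. Eef1d (chr15:75894205-75909556), the delta subunit, also an exchange factor, was at 84.4 and 92.5 TPM, a mean of 88.5 ± 5.70. Summed eEF1A RNA was 7.57 times the mean of the 3 subunit genes in replicate 1 and 7.16 times in replicate 2. In the second tables it was 6.60 and 6.02 times that mean.

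The regulators were lowest. Eif4e (chr3:138526179-138559696) was at 50.3 and 53.0 TPM, averaging 51.6 ± 1.91. Eif4ebp2 (chr10:61428491-61452661) was at 63.0 and 53.9 TPM, a mean of 58.4 ± 6.48, and Eif4ebp1 (chr8:27260329-27276674) at 27.9 and 23.2, a mean of 25.6 ± 3.30. Eef2k (chr7:120842831-120907450) was at 34.8 and 31.4 TPM, a mean of 33.1 ± 2.42. Eef2 RNA thus stood at 15.0 times that of its kinase in replicate 1 and 15.4 times in replicate 2. In the second tables it stood at 12.5 and 13.7 times. The 4E-binding protein genes summed to 1.81 times Eif4e in replicate 1 and 1.45 times in replicate 2 of the first tables. Eif4ebp2 held 69.3% and 69.9% of their sum in the first tables, and 59.1% and 59.4% in the second. Most of the Eif4ebp1 level lay in a transcript with no annotated protein, described further on. From protein-coding transcripts alone, a choice made after seeing the data, the ratio was 1.44 and 1.15 in the first tables and 0.819 and 0.690 in the second. On that basis Eif4ebp2 held 88.0% and 89.6% of the sum in the first tables. These are ratios of RNA and say nothing of protein.

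**Figure D1:**
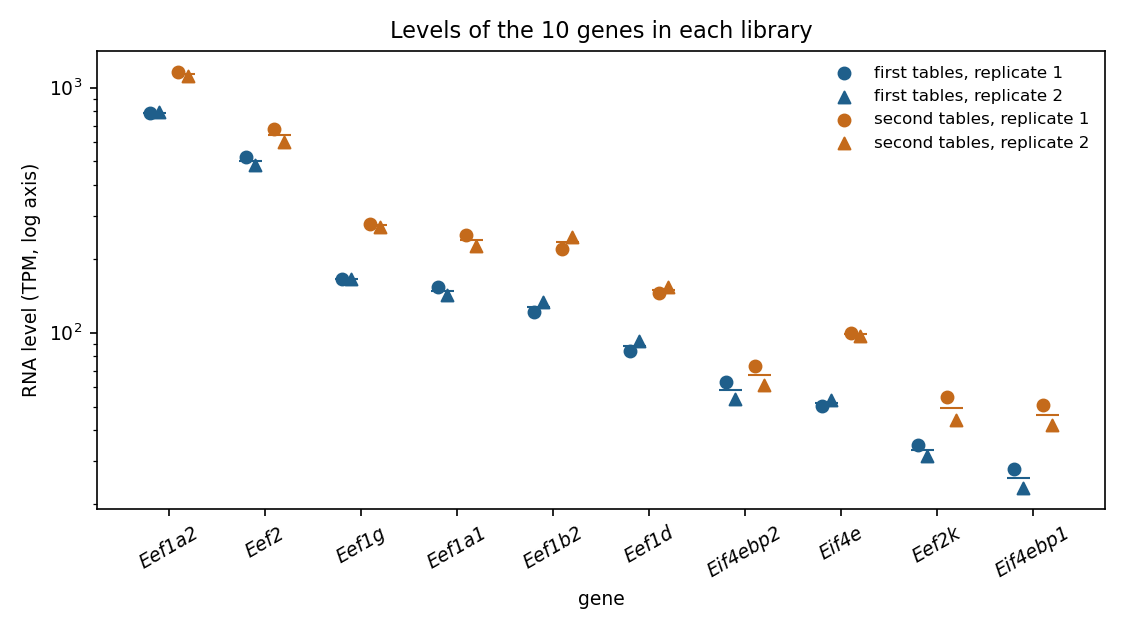
Level in TPM on a log axis of each gene, ordered by mean level in the first tables; circles are replicate 1, triangles replicate 2, and bars the mean of the 2 libraries. Eef1a2 is highest in both kinds of table, at 789 TPM on average in the first and 1142 in the second, and Eif4ebp1 is lowest.

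In the first tables none of the 9 pairs of neighbours in the order of levels overlapped between libraries. The order was Eef1a2, Eef2, Eef1g, Eef1a1, Eef1b2, Eef1d, Eif4ebp2, Eif4e, Eef2k and Eif4ebp1. Eif4ebp2 and Eif4e were close in replicate 2, at 53.9 and 53.0 TPM, and the deposited bounds on them overlapped (51.1 to 54.8 and 49.0 to 56.1). Such bounds also overlapped for Eef1g and Eef1a1 in replicate 1 and for Eef1a1 and Eef1b2 in replicate 2. For Eef1a2 and Eef2 the bounds lay below the TPM itself in both libraries. In replicate 1 Eef1a2 stood at 786 TPM with bounds of 765 to 778, and Eef2 at 523 with 509 to 518. With 2 libraries the overlap of ranges is a weak criterion, and the second tables changed part of the order. There Eef1a1, at 251 TPM in replicate 1 and 226 in replicate 2, overlapped Eef1b2, at 220 and 247. Eef2k, at 54.5 and 44.0 TPM, overlapped Eif4ebp1, at 50.7 and 41.9. Eif4e stood above Eif4ebp2 there, at 99.6 and 97.3 TPM against 73.2 and 61.1.

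All 10 genes had higher TPM in the second tables, by 1.13 to 1.98 times. The ratio was lowest for Eif4ebp2, at 1.16 in replicate 1 and 1.13 in replicate 2, whose mean transcript length was 4934 and 5035 nt. It was highest for Eif4e in replicate 1 and Eef1b2 in replicate 2, at 1.98 and 1.84, with mean lengths of 1433 and 707 nt. The effective length, by which reads are divided for TPM, also differed. For long transcripts it was a median of 99 nt below the length in both first tables. In the second it was 343 nt below in replicate 1 and 338 in replicate 2. In replicate 1 Eef1b2-209 had 582 nt in the first table and 338 in the second. Eif4ebp2-201 had 5685 and 5441 nt. The part of this in the TPM ratios was not tested. Counts moved less, with Eif4e at 2305 expected reads in the first and 2569 estimated reads in the second table of replicate 1. The ratio of 4E-binding protein RNA to Eif4e RNA fell with this choice, to 1.24 in replicate 1 and 1.06 in replicate 2. That Eif4ebp2 exceeds Eif4e therefore holds for the first tables alone, and narrowly there in replicate 2.

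Processed pseudogenes limit some of these values. Annotated genes at least 95% identical over at least 300 nt numbered 11 for Eef1a1, 5 for Eef1g and 1 each for Eef1d, Eef2 and Eif4e, and none for the other 5 genes. The copies of Eef1g together were at 17.4 TPM in replicate 1 and 20.2 in replicate 2, or 10.5% and 12.2% of the Eef1g level. Among them Gm5525, 97.9% identical over 1312 nt, was at 13.4 and 12.9 TPM, and Gm4366, 99.6% identical over 1342 nt, at 3.28 and 6.61. In Eef1g-201, 872 of 1765 windows of 100 bases (49.4%) also occurred in a transcript of another gene, and in Eef1a1-201 452 of 1695 (26.7%). No window of Eef1a2-201, Eif4ebp1-202 or Eif4ebp2-201 did, and 2 of 2990 did in Eef2-201. The Eef1a1 copies summed to 6.64 and 6.63 TPM, led by Gm6548 (3.12 and 2.76) and AC133509.1 (2.63 and 2.09). The Eef2 copy Gm13050 was at 27.2 and 26.5 TPM. How the reads of these copies should be split was not tested, so the Eef1g level is uncertain.

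Overlapping annotations touched the genes little. Exons of Eef1b2 share 9 bases with Ndufs1 on the opposite strand, which stood at 127 TPM in replicate 1 and 161 in replicate 2. Exons of Eef1d share 277 bases with Naprt, at 2.33 and 2.09 TPM. The antisense gene Gm15774 in Eef2k had 0 reads in replicate 1 and 1 in replicate 2.

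Transcript composition differed widely among the genes. Eef1a2 has 1 annotated transcript. Eef2 RNA was 99.3% and 99.5% Eef2-201, which has 14 exons, and its 2 retained-intron transcripts made up the rest. Of the 18 annotated Eef1d transcripts 5 had a mean share of at least 5% in the first tables, led by Eef1d-213 at 30.8% and 30.4% and Eef1d-217 at 25.4% and 31.3%. Eef1d-207 held 23.3% and 14.7%, Eef1d-201 7.62% and 10.5%, and Eef1d-203 6.56% and 6.65%. In the second tables Eef1d-217 led, at 52.6% and 58.7%, while Eef1d-207 held 10.4% and 2.82%, Eef1d-201 0% and 2.26%, and Eef1d-203 0% in both libraries. The long form Eef1d-204 (2152 nt) was at 0 TPM in replicate 1 and 0.51 in replicate 2 of the first tables, but at 6.60 and 8.23 in the second.

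Eef1b2 RNA lay partly in transcripts that the annotation marks as targets of nonsense-mediated decay. Their share was 34.2% in replicate 1 and 36.01% in replicate 2 of the first tables, and 51.3% and 49.4% in the second. The coding transcript Eef1b2-209, whose first bases are printed above, held 61.7% and 60.9% in the first tables but 31.99% and 32.4% in the second. Eef1b2-205, marked for decay, held 22.3% and 24.1% in the first tables, and Eef1b2-208, also marked for decay, held 11.5% and 11.7% there but was near 0 in the second. Eef1b2-201, also marked for decay, was at 0% and 0.157% in the first tables but at 19.9% and 11.1% in the second. The assignment among Eef1b2 transcripts thus differed between kinds of table and, for Eef1b2-201, between libraries of the second.

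Most Eef1a1 RNA was assigned to the full-length Eef1a1-201, at 74.6% in replicate 1 and 81.6% in replicate 2. The short Eef1a1-208, of 745 nt and 3 exons, held 14.7% and 16.8% in the first tables but 45.4% and 41.8% in the second. Eef1g behaved likewise, with Eef1g-201 at 86.1% and 86.6% in the first tables and 71.1% and 72.1% in the second. The remainder was mostly Eef1g-202, a transcript of 706 nt with no annotated protein. Eif4e was spread over Eif4e-205 (46.3% and 54.6%), Eif4e-202 (25.5% and 14.1%), Eif4e-201 (16.1% and 14.2%) and Eif4e-206 (9.34% and 15.0%). Yet Eif4e-201, of 4991 nt, took 1358 of 2305 reads in replicate 1 and 1264 of 2229 in replicate 2. Eef2k was led by Eef2k-203 at 35.8% and 38.2% and the long Eef2k-201, of 6580 nt, at 29.8% and 27.02%. Eef2k-204 held 19.5% and 13.8%, Eef2k-205 5.23% and 6.69%, and Eef2k-207 5.49% and 5.39%. In the second tables Eef2k-204 held 27.5% and 25.9%, Eef2k-205 0% in both libraries, and Eef2k-207 10.3% and 11.9%. For Eif4ebp2 the long Eif4ebp2-201 of 5784 nt held 80.5% and 82.8% in the first tables and over 99% in the second, where Eif4ebp2-202 was near 0.

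**Figure D2:**
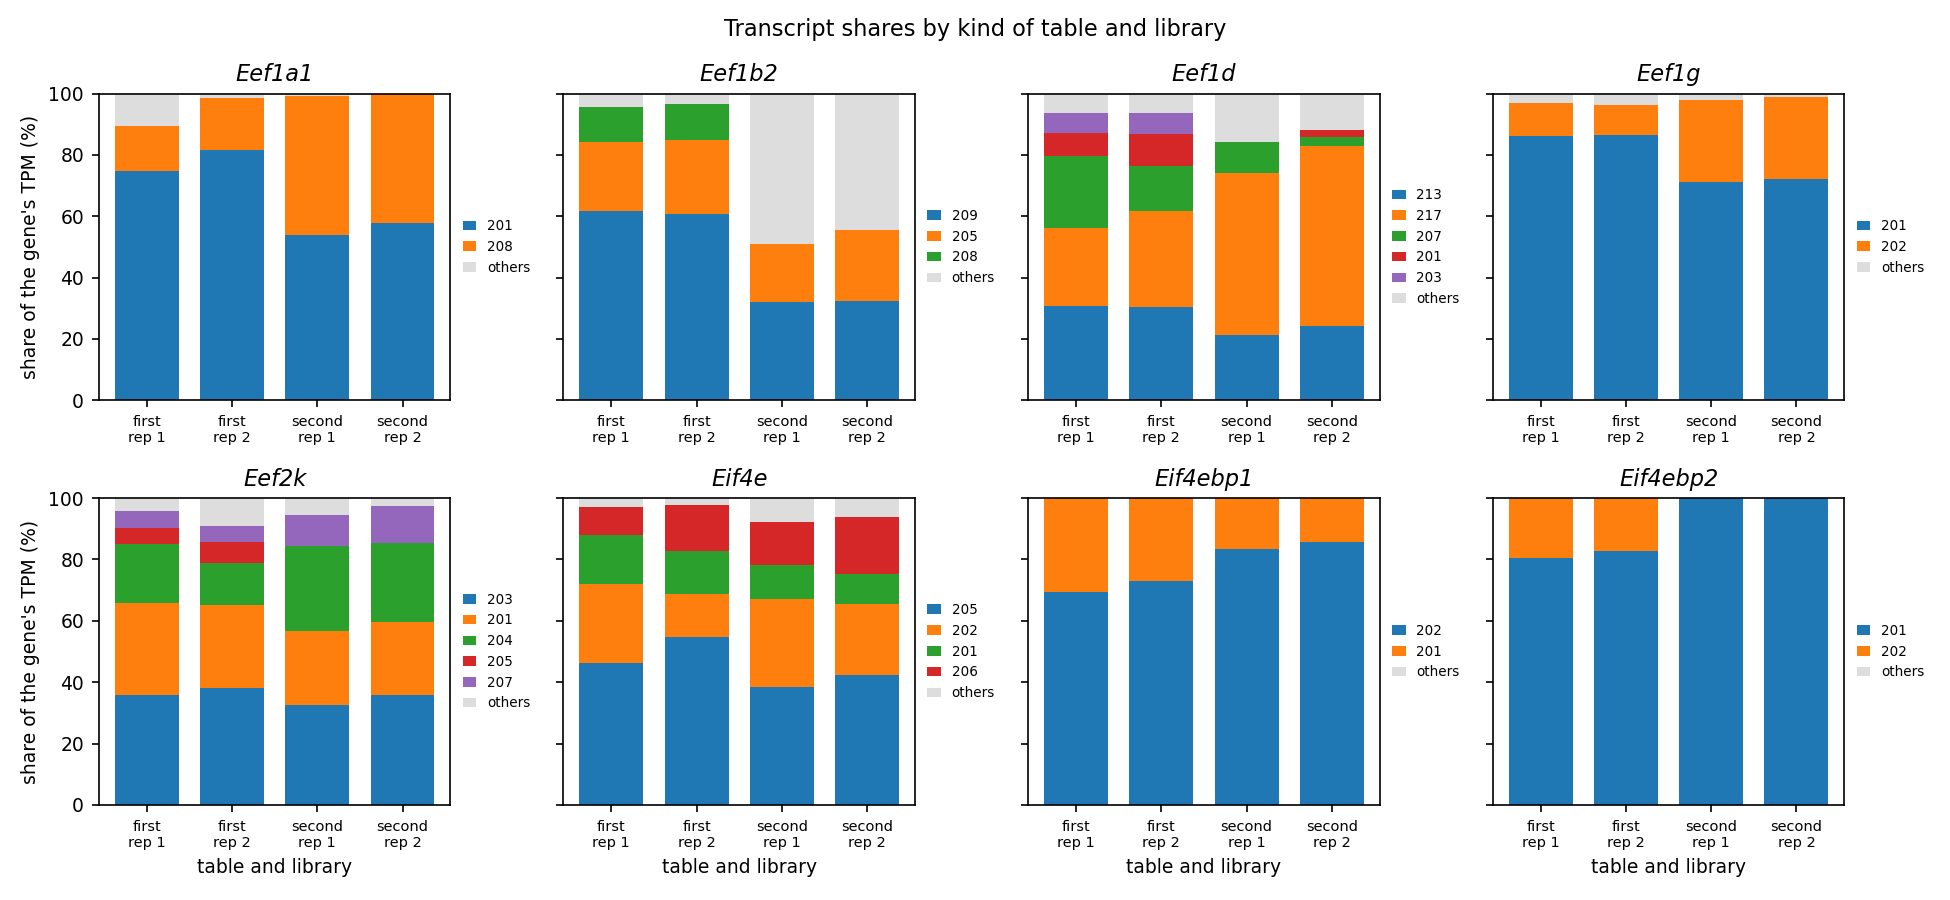
Share in percent of each gene's TPM held by its transcripts, for the first and second tables of each library; colours are annotated transcript numbers, and grey is all others. In replicate 1 Eef1a1-208 is at 14.7% in the first table and 45.4% in the second, and Eif4e-202 differs between libraries, at 25.5% and 14.1% in the first tables.

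Eif4ebp1 had most of its TPM in a transcript with no annotated protein. Eif4ebp1-202 (chr8:27264414-27275498, plus strand, 798 nt) held 69.3% in replicate 1 and 72.9% in replicate 2 of the first tables, and 83.6% and 85.7% in the second. The coding transcript Eif4ebp1-201 held the rest, at 8.56 and 6.28 TPM in the first tables and 8.33 and 6.00 in the second. In reads of the first tables the order was the other way in replicate 1, with 558 for Eif4ebp1-201 and 464 for Eif4ebp1-202, and close in replicate 2, with 410 and 407. In reads of the second tables Eif4ebp1-202 led in both libraries, with 545 against 390 in replicate 1 and 483 against 292 in replicate 2. The transcripts share 599 bases. Eif4ebp1-201 has 1398 bases of its own, most of them in its last exon, and Eif4ebp1-202 has 199, in 3 exons that lie within the first intron of Eif4ebp1-201. The shared exon at chr8:27273323-27273502 holds the codons of the eIF4E-binding motif printed above. The Eif4ebp1 total of 25.6 TPM is therefore not a level of the coding transcript, whose mean was 7.42 TPM.

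**Figure D3:**
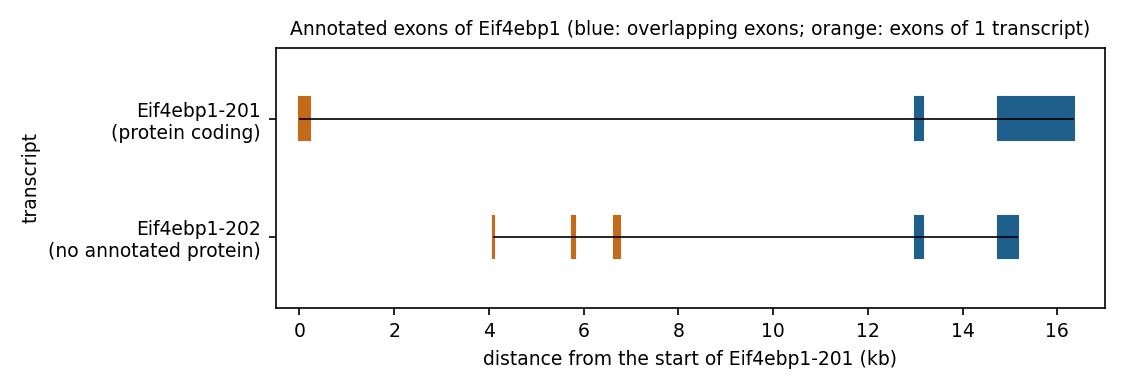
Annotated exons of the 2 Eif4ebp1 transcripts, to scale, by distance in kb from the start of Eif4ebp1-201; blue exons overlap between transcripts and orange ones belong to 1. Eif4ebp1-202 starts inside the first intron of Eif4ebp1-201 and has 3 exons of its own, 199 bases in all.

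The libraries were then compared gene by gene. This tests the difference between 2 libraries only, and no further sample is there to check it. Ratios are of expected counts scaled by TMM factors, replicate 2 over replicate 1, with exact 95% intervals for counting error alone. All 10 genes lay within 1.21-fold, and none reached 1.5-fold. Of all 14827 genes tested 12.6% were past 1.5-fold, and the percentage was 5.41 among 10054 genes with at least 200 reads in all, a minimum every one of the 10 exceeds. At an adjusted p under 0.05 (exact two-sided conditional binomial test, Benjamini-Hochberg over 14827 genes), 4 of the 10 were higher in replicate 2 and 4 in replicate 1. The background was 25.8% of genes either way, 14.3% higher in replicate 2 and 11.5% higher in replicate 1, or 33.4% either way among genes with at least 200 reads. The test covers counting error, so deeply counted genes pass at small ratios. With a negative binomial test at the dispersion of these libraries (edgeR), 0 of the 10 passed and 0 had an unadjusted p under 0.05, where 1.25% of all genes passed. That dispersion comes from the same pair of libraries.

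The median log2 ratio of the 10 was 0.01, and that of all genes tested 0.00. The largest ratios toward replicate 2 were those of the eEF1B beta and delta subunit genes. Eef1b2 had 2573 reads in replicate 1 and 2802 in replicate 2, a log2 ratio of 0.17 (95% interval 0.09 to 0.25, adjusted p = 0.000111). Eef1d had 2005 and 2180 reads, also a log2 ratio of 0.17 (0.08 to 0.26, adjusted p = 0.00105). Among genes with at least 200 reads, 39.6% lay at least as far from 0 as Eef1b2 and 40.1% as far as Eef1d. Eef1a2, with 53600 and 54110 reads, had 0.06 (0.04 to 0.08, adjusted p = 2.31e-11), and Eef1g, with 9174 and 9259, had 0.06 (0.02 to 0.10, adjusted p = 0.0174). The Eef1g call was lost with library totals (adjusted p = 0.382) and with DESeq2 size factors (adjusted p = 0.144), and held in the other alternatives on counting error.

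Of the regulators, Eif4ebp1, Eef2k and Eif4ebp2 were lower in replicate 2, as was Eef2. Eif4ebp1 had 1022 reads in replicate 1 and 817 in replicate 2, a log2 ratio of -0.27 (-0.41 to -0.14, adjusted p = 0.000384), the farthest of the 10. Of genes with at least 200 reads 22.2% lay as far or farther. Eef2k had 4113 and 3429 reads, a log2 ratio of -0.21 (-0.28 to -0.15, adjusted p = 1.97e-09). Eif4ebp2 had 10469 and 9142 reads, a log2 ratio of -0.15 (-0.19 to -0.11, adjusted p = 1.74e-11). Eef2 had 53443 and 49459 reads, a log2 ratio of -0.06 (-0.08 to -0.05, adjusted p = 3.43e-11), which did not pass when scaled to spike-in RNA (-0.01, adjusted p = 0.392). Eif4e had 2305 and 2229 reads and a log2 ratio of 0.00 (-0.08 to 0.08, adjusted p = 1). Eef1a1 had 7499 and 7385 reads and 0.03 (-0.02 to 0.07, adjusted p = 0.495), and it passed only with spike-in scaling (0.08, adjusted p = 0.00538). In the second tables, where 24.5% of genes passed, the same 8 genes did so in the same directions.

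**Figure D4:**
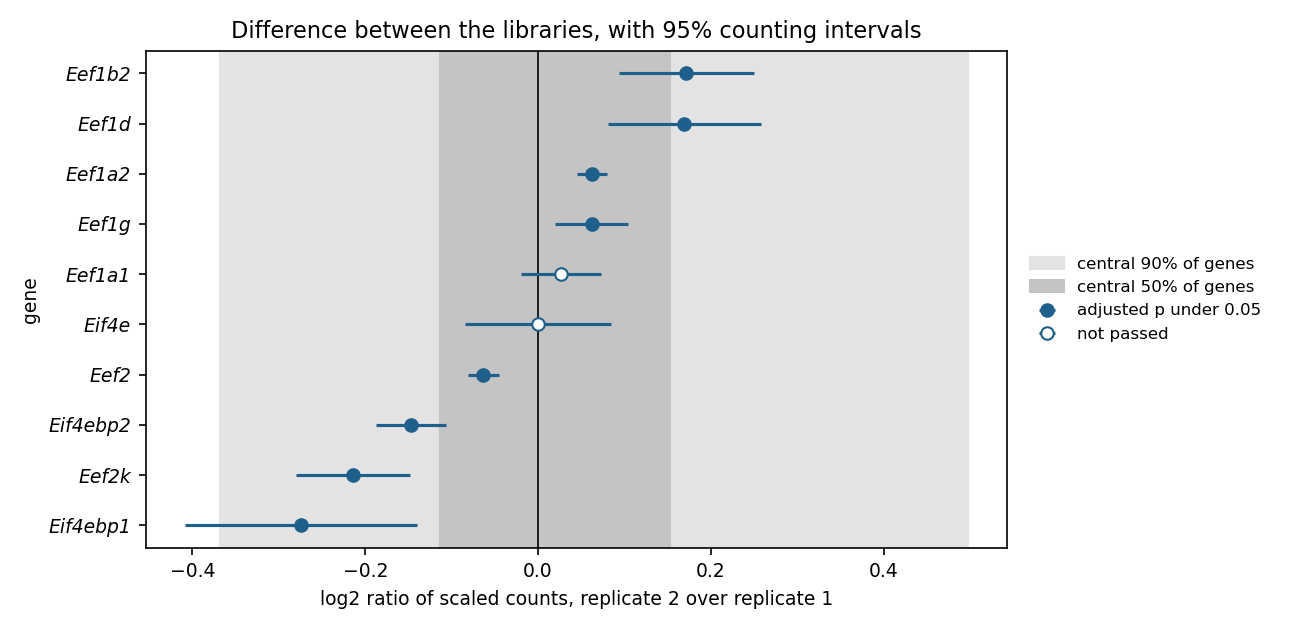
Log2 ratio of TMM-scaled expected counts, replicate 2 over replicate 1, with 95% counting intervals; filled points passed at an adjusted p under 0.05, and grey bands hold the central 50% and 90% of genes with at least 200 reads. Points run from -0.27 for Eif4ebp1 to 0.17 for Eef1b2, all inside the 90% band.

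RNA of fibre-type markers differed between the libraries beside these values. The 5 slow-fibre markers (Myh7, Tnni1, Tnnt1, Tnnc1 and Myl2) summed to 887 TPM in replicate 1 and 2282 in replicate 2, and each of the 5 was higher in replicate 2. Their median log2 ratio was 1.36. The 5 fibre markers fixed as a check of the tissue (Acta1, Ckm, Tnnt3, Mylpf and Myh4) were lower in replicate 2, with a median of -0.28. At an adjusted p under 0.05 in the binomial test, fibro-adipogenic markers went both ways, 4 higher in replicate 1 and Col1a1 higher in replicate 2. Of the 5 endothelial markers 3 were higher in replicate 2 and 1 in replicate 1, although their sum was 60.1 TPM in replicate 1 and 56.4 in replicate 2. Of the 5 mural markers 1 was higher in replicate 2 and 2 in replicate 1. The background was 25.8% of all genes tested, or 33.4% of those with at least 200 reads. The part of these differences in the ratios of the 10 genes was not tested.

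Of 19 genes of the eIF4F complex and its regulators 5 were higher in replicate 2 and 6 in replicate 1, beside 25.8% of all genes tested. All but 1 of these 19 had at least 200 reads, a depth at which 33.4% of genes passed. Their median log2 ratio was -0.01. The scaffold genes led by level, with Eif4g2 at 271 TPM in replicate 1 and 277 in replicate 2 and Eif4g1 at 181 and 169, beside the helicase gene Eif4a2 at 181 and 169. Cyfip2, a relative of the eIF4E-binding and actin-regulating Cyfip1, stood apart at 0.91 and 3.20 TPM, a log2 ratio of 1.86 and the sole gene of the list past 1.5-fold. The scaffold gene Eif4g3 had a log2 ratio of -0.22, and Eif4e3, a cap-binding relative of Eif4e, had -0.23. Eif4ebp3, the remaining 4E-binding protein gene, was at 2.27 and 2.37 TPM and did not pass. Among 28 other initiation factors 3 were higher in each library, with a median of -0.01. Eif1, the start-codon factor gene, was at 565 and 589 TPM, a log2 ratio of 0.09. Eif5 was at 65.2 and 57.6 TPM and Eif3h at 60.9 and 59.7, and neither passed. Eif1b had 0.25, Eif2b4 0.20 and Eif2s2 -0.15.

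Of 20 other elongation factors and modifying enzymes, 19 were tested, 13 of them with at least 200 reads. The 1 that passed, beside 25.8% of all genes tested, was the valyl-tRNA synthetase gene Vars, whose protein binds eEF1B, at a log2 ratio of -0.18 (13.8 TPM in replicate 1 and 12.7 in replicate 2). Eif5a, which helps the ribosome over difficult stretches, was the most abundant at 170 and 158 TPM. Dph3, of the pathway that makes diphthamide on eEF2, was at 47.9 and 46.8 TPM, and Dohh, which completes hypusine on eIF5A, at 15.6 and 14.7. None of 5 tested termination and rescue genes passed. The release factor gene Etf1 was at 34.9 and 35.0 TPM, Hbs1l at 24.8 and 24.1 and Gspt1 at 23.2 and 22.9.

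The list for elongation on the mitochondrial ribosome has 5 genes and includes the recycling factor gene Gfm2. Of these 4 passed, each higher in replicate 2, beside 25.8% of all genes tested. All 5 had at least 200 reads, a depth at which 33.4% of genes passed, 18.7% of them all as higher in replicate 2. The list's median log2 ratio was 0.26. Tufm, the mitochondrial EF-Tu gene, was at 43.5 TPM in replicate 1 and 52.4 in replicate 2, a log2 ratio of 0.37. Gfm1, the mitochondrial translocase gene, was at 40.9 and 46.4 TPM, a log2 ratio of 0.26, and Gfm2, a ribosome recycling factor gene, at 17.96 and 19.2, a log2 ratio of 0.18. Tsfm, the exchange factor gene of Tufm, was at 5.89 and 8.00 TPM, a log2 ratio of 0.44. Of their cytosolic counterparts, Eef1a1, Eef1a2 and Eef2 had 0.03, 0.06 and -0.06, and the exchange factor genes Eef1b2 and Eef1d had 0.17 each. The difference between the lists was not tested.

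**Figure D5:**
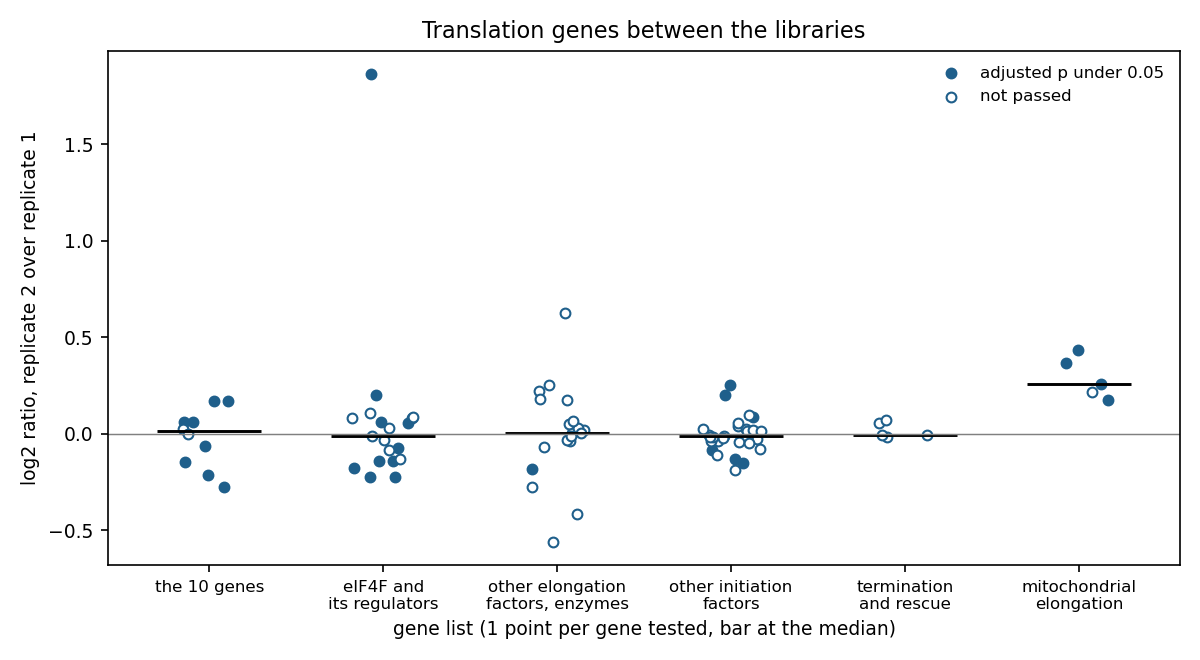
Log2 ratio, replicate 2 over replicate 1, of each tested gene in 6 lists of translation genes; filled points passed at an adjusted p under 0.05 and bars are list medians. The median is 0.01 for the 10 genes and 0.26 for the 5 genes of the mitochondrial elongation list, and Cyfip2 lies far above its list at 1.86.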

How the data were processed

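Total RNA from 2 libraries was analysed. Per the file headers, the authors deposited expected counts and TPM for genes and transcripts in RSEM's layout (first tables). The authors also deposited an isoform percent and, as scores, bounds on each TPM. Estimated counts and TPM of transcripts were deposited in kallisto's layout (second tables). Deposited notes name mm10 and GENCODE M21; the programs used, their versions and the strand setting were not given in the sources used here. Symbols came from the target identifiers, coordinates from GENCODE M21. The mm10 assembly is of the B6 strain, and alleles were not separated.

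Second tables were summed to genes. Expected counts were rounded, scaled by TMM (edgeR 4.0.16, R 4.3.3), with 0.5 added for ratios. Genes reaching 20 counts over both libraries were compared by a two-sided exact binomial test conditional on their sum (scipy 1.17.1), Benjamini-Hochberg adjusted over all genes tested, after checking on simulated data. Spike-in RNAs and entries with numeric identifiers, which held 1 read in replicate 1 and 0 in replicate 2, were left out. edgeR's quasi-likelihood test needs replicated groups and was not run. Copies were sought with BLAST 2.17.0. Alternatives were DESeq2 1.42.0 size factors, library and spike-in totals, count filters, added counts, copies summed, the other tables and each library alone. Intervals reflect counting error alone, and reads were not tied to single molecules.

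Named genes are the 10 members, transcripts with at least a 5% mean share or leading a table, copies with at least 1% of their member's TPM, and in each list the 3 highest by level and the 3 with the largest ratio among those that passed with at least 200 reads. Eif4ebp3, Eef1b2-201, Eef1d-204, Col1a1, Syt1, Tubb3, Itga7, Pax7, Myf5, Vcam1, Rgs5, Abcc9 and overlapping genes were named after their values were seen. The members and lists were chosen with earlier results of these data known.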

Additional observations from a re-analysis of the deposited data

How the results depend on the processing

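The summed level of the 10 genes, 1991 TPM on average, was 2939 in the second tables, 1960 as posterior mean, 2044 with near-identical copies added and 4263 when TPM was rescaled to protein-coding genes. The Eef1a2 share of 84.2% became 82.7% in the second tables and 87.9% on raw counts. The ratio of 4E-binding protein to Eif4e RNA fell from 1.63 to 1.15 in the second tables. From protein-coding transcripts alone, an alternative chosen after seeing the data, it was 1.29 in the first tables and 0.754 in the second. Of 8 genes called between libraries 0 were called by the negative binomial test, in which the added dispersion widens the error and 1.25% of all genes passed against 25.8% in the binomial test. Scaling by totals or by DESeq2 size factors left 7 calls, and the other alternatives 8, in no case with a call in the opposite direction. Of 100 single-gene ratios under alternatives, 88 kept their side of the threshold, 11 lost it and 1 gained it. Part of the 88 was fixed in advance. The test does not use the added count, so changing it cannot move a call, and summing copies alters no reads of genes without copies. Leaving out either library moved no gene's level beyond its SD, which 2 values cannot exceed by construction. Depth limits Eif4ebp1 most, with 817 reads in replicate 2. No paired analysis was possible because there is 1 group.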
